A study of Sus scrofa with 6 samples.

Results

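The miRNAs described here are typical of tissues other than the heart, and their probes were read in the left atrium (LA) of pigs. They were chosen by name. The 10 miRNAs sought were miR-9, miR-96, miR-122, miR-124a, miR-182, miR-183, miR-200b, miR-205, miR-216 and miR-217, with any arm or copy suffix. They have 9 probes among the 322 pig miRNA probes of the array, since miR-9 has 2 probes and no probe carries the name of miR-96 or miR-200b. The study itself singled out miR-182 on these arrays, so the difference of miR-182 given here is not independent evidence.

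The study asked how brief, self-terminating episodes of atrial fibrillation change atrial miRNAs. LA tissue came from 3 sham and 3 paced Large White pigs, and each animal had its own 1-colour array. Paced animals (the PAF group of the labels) received esmolol, a beta blocker that limits the ventricular rate, and then 3 bursts of pacing at 800 bpm through a catheter in the right atrium, and tissue was taken 20 to 24 hours later. Sham animals (the control group of the labels) were operated on without burst pacing. The methods give an age of 3 months for all animals, whereas the labels call them neonatal. The labelled "Left atria" tissue was whole tissue, in which fewer cells of a type and less RNA per cell cannot be told apart.

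A mature miRNA guides a silencing complex to messenger RNAs, mainly through its seed, bases 2 to 8 from the 5′ end. miR-9 and miR-124 are abundant in neurons and their precursors, where they favour neuronal differentiation. miR-183, miR-96 and miR-182 are made from neighbouring genes, are prominent in sensory cells of the eye and ear, and are also found in epithelia. miR-205 and the miR-200 family, to which miR-200b belongs, keep epithelial cells in their epithelial state by limiting ZEB1 and ZEB2. miR-122 is the most abundant miRNA of hepatocytes, and miR-216 and miR-217 are typical of the exocrine pancreas. The atrium holds nerve fibres and a thin mesothelial cover, but none of these miRNAs is known as a major miRNA of heart muscle.

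The array targets, as the array files give them, are shown 5′ to 3′ with the seed in capitals, because the probes can only be judged against the letters they were made to bind.
miR-9: uCUUUGGUuaucuagcuguaug
miR-9-1: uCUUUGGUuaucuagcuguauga
miR-124a: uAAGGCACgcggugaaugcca
miR-183: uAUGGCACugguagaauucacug
miR-182: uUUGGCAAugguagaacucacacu
miR-205: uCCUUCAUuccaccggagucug
miR-122: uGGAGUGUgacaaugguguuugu
miR-216: uAAUCUCAgcuggcaacugugag
miR-217: uACUGCAUcaggaacugauuggau

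The 2 miR-9 targets share a seed and all 22 bases of the shorter one, and miR-9-1 has 1 more base, an A, at its 3′ end. They are therefore close to a repeated measurement of 1 target rather than separate miRNAs. No other probe on the array has the seed of any of the 9. miR-182 and miR-183 have the same base at 18 of the 23 positions that can be compared from the 5′ end. They differ by U2A, A8C, C17U, A22U and C23G, with the base of miR-182 given before the position and that of miR-183 after it. The differences at positions 2 and 8 give them different seeds. miR-182 also shares a run of 8 bases, gguagaac, with the target of miR-140-3p. Its longest run with miR-183, ugguagaa, is of the same length, and no other target shares a longer one. All 6 arrays had miR-140-3p well above background. The normalized log2 intensity of miR-140-3p differed between paced and sham animals by -0.01 (SE 0.10, limma, adjusted p = 0.970), and the part of its binding in the miR-182 signal was not tested. The G and C content of the 9 targets lay between 34.8% and 57.1%, with a median of 43.5%, beside a median of 47.6% over all 322 targets. By RefSeq's gene list for Sscrofa11.1, the genes of miR-183, miR-96 and miR-182 lie within 10 kb of one another, and so do those of miR-216 and miR-217. The genes of miR-9, miR-122, miR-124a and miR-205 have no other miRNA gene within that distance.

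Each array held 3968 spots, among them 9 repeat spots for each miRNA probe and 786 empty spots, from which the background was read. The empty spots had medians from 64.7 to 214 scanner units on the sham arrays and from 242.5 to 399 on the paced arrays, so the background moved with the group. The part of the background in the differences below was not tested. The bar for a signal well above background was an excess of over 3 SD of the empty spots, taken from the medians of repeat and empty spots, and 104 to 175 probes met it on each array. Of the 5 cardiac muscle markers, miR-1, miR-133a-3p, miR-133b and miR-499-5p were well above background on all 6 arrays, and miR-208b was so on 3 sham and 2 paced arrays. Of the 6 blood markers with a probe, miR-451 and miR-150 were well above background on all 6 arrays, miR-486 was so on 3 sham and 2 paced arrays, and miR-142-3p, miR-142-5p and miR-144 on none. The summed normalized intensity of the blood markers ran from 13589 to 18261 in sham animals and from 9365 to 13750 in paced animals. Among the single blood markers miR-486 differed by -0.70 (SE 0.15, limma, adjusted p = 0.148), with paced below sham without overlap, and miR-451 by -0.37 (SE 0.20, adjusted p = 0.507). The part of blood in the results was not tested. Of the 2 endothelial probes, miR-126-3p passed the bar on all 6 arrays and miR-126-5p on none. The difference of miR-126-3p was -0.02 (SE 0.10, limma, adjusted p = 0.935), and its groups overlapped. That of miR-126-5p was 0.37 (SE 0.13, limma, adjusted p = 0.360), with paced above sham without overlap.

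None of the 9 probes was well above background in any of the 6 animals. Over the whole array this held for 143 of the 322 probes (44.4%). Both groups of each of the 9 were thus not well above background, so the differences given below are between signals near the background and are not folds of a miRNA's level. With each spot set against its 15 closest empty neighbours, which follows uneven background across an array, miR-182 alone passed 3 SD, on 1 sham and 1 paced array. The other 8 passed on no array, as did 123 of all 322 probes (38.2%).

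Against the nearest empty spots, the median miR-182 signal stood at 0.20, 4.92 and 1.95 SD of the empty spots in sham replicates 1, 2 and 3. The paced replicates 1, 2 and 3 had -0.23, 4.42 and 1.65 SD. The values of the second animal of each group were high, and those of the first were near the empty spots, so the groups overlapped. Of the 54 repeat spots of miR-182 on the 6 arrays, 43 were brighter than their nearest empty spots. For the other 8 probes this count ran from 8 (miR-9) to 27 (miR-9-1) of 54. The 143 probes that were well above background on no array had a median count of 15, with a range from 0 to 46.

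**Figure D1:**
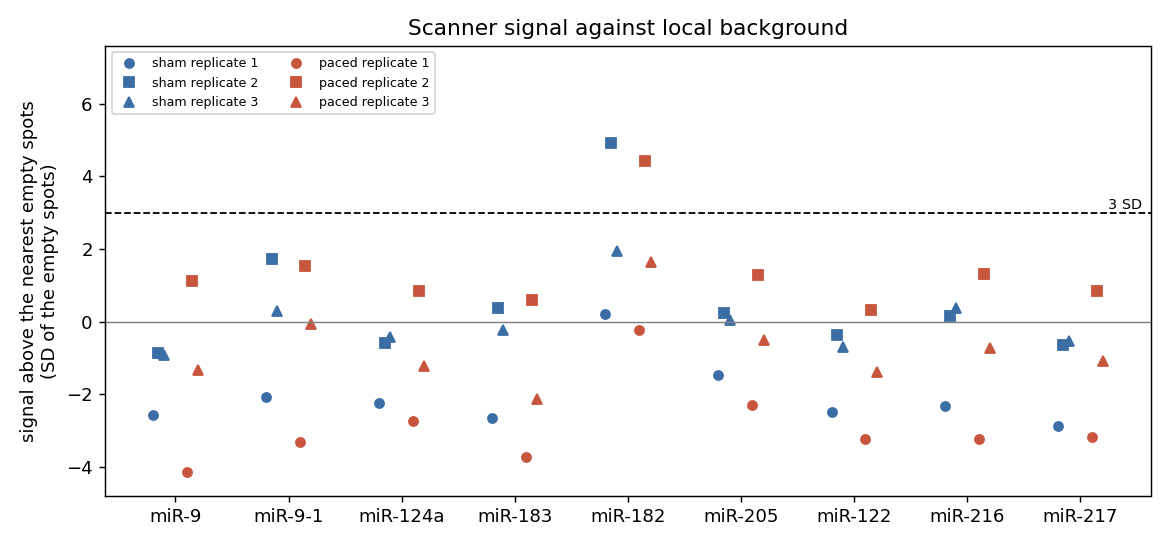
Signal of each probe above the 15 nearest empty spots, as the median of 9 repeat spots and in SD of the empty spots against their neighbours (vertical axis), for 3 sham (blue) and 3 paced (red) animals, with the replicate shown by the marker shape. Only miR-182 crosses the dashed line at 3 SD, in sham replicate 2 and paced replicate 2, and most other points lie near or below 0.

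The neural probes stayed below 3 SD in every animal. For miR-9, the signal against the nearest empty spots ran from -4.14 SD in paced replicate 1 to 1.13 SD in paced replicate 2. For miR-9-1 it ran from -3.32 SD to 1.71 SD, and for miR-124a from -2.75 SD to 0.84 SD. The lowest value of all 3 came from paced replicate 1. The array of that animal also gave the lowest values of the other 6 probes. For miR-183, the sensory and epithelial neighbour of miR-182, the range was -3.73 to 0.59 SD. The liver miRNA miR-122 ran from -3.23 to 0.32 SD. The pancreatic miR-216 and miR-217 ran from -3.24 to 1.31 SD and from -3.19 to 0.85 SD. The epithelial miR-205 ran from -2.29 to 1.29 SD.

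To compare paced and sham animals, the scanner values of all spots were corrected for background with normexp, which fits a background to each array (offset 50), quantile-normalized and averaged over the repeat spots on the log2 scale. limma was then fitted to all 322 probes. With 3 animals against 3, an exact permutation test of 1 miRNA cannot give a p below 0.1. Of the 9 probes, 1 reached an unadjusted p of 0.05 or less, miR-182, with higher values in paced animals. Over the array 11 probes (3.42%) did so with higher values and 23 (7.14%) with lower values. After adjustment by the method of Benjamini and Hochberg over all 322 probes, limma called 0 of the 9 and 0 of all probes (0%), and the methods' t-test on the same values also called 0. Leaving out paced replicate 1 brought 9 of the 322 probes past the adjusted threshold, with 0 of the 9 described here among them. Scaling the arrays to their detected probes, which moved the median difference of all probes to 0.44, put 171 of the 322 probes past it, all 9 included. With that scaling limma gave each of the 9 the same SE, 0.19, so those p-values do not reflect a probe's own spread. The mean was higher in paced animals for 8 of the 9 probes and lower for miR-9-1, and over the array it was higher for 162 of the 322 probes. Paced lay above sham without overlap for 2 of them, miR-182 and miR-205, against 22 of all 322 probes (6.83%). The median difference was 0.09 over the 9 probes and 0.00 over all probes, and it was 0.05 over the 143 probes well above background on no array.

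**Figure D2:**
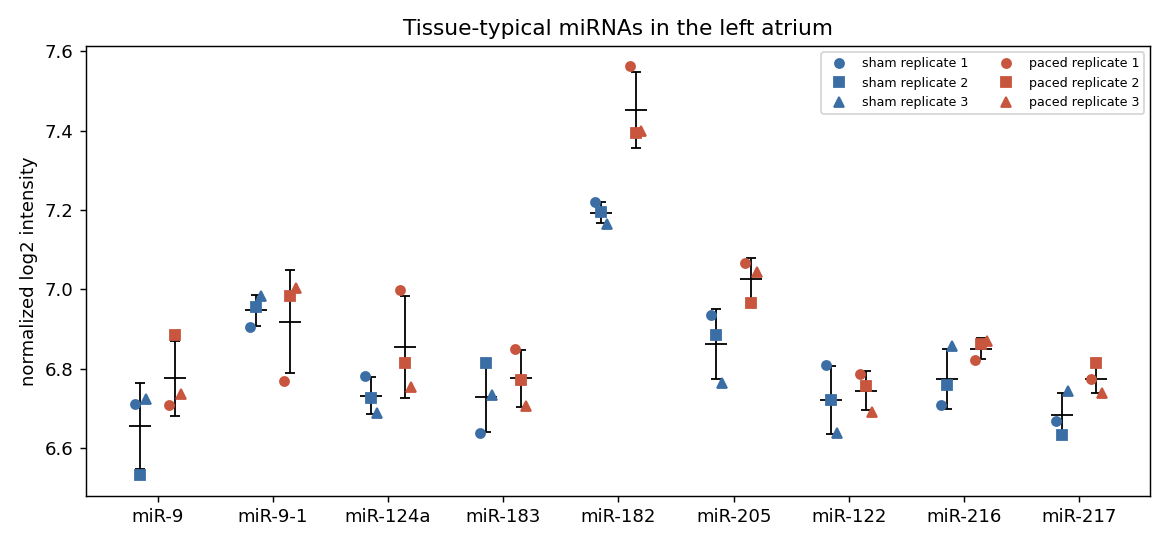
Normalized log2 intensity of the 9 probes (vertical axis) in each sham (blue) and paced (red) animal, with the mean and SD of each group (n = 3) as black bars. The paced values of miR-182 and miR-205 lie above their sham values, and the groups overlap for the other 7.

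For miR-182, sham replicates 1, 2 and 3 had normalized log2 intensities of 7.22, 7.20 and 7.17, and paced replicates 1, 2 and 3 had 7.56, 7.39 and 7.40. Each paced animal was above each sham animal, and paced replicate 1 was the highest. Sham animals averaged 7.19 ± 0.03 and paced animals 7.45 ± 0.10 (SD, n = 3 each). The difference was 0.26 (SE 0.07, 95% interval 0.08 to 0.43, limma, p = 0.0106, adjusted p = 0.262), and the exact permutation test gave its smallest possible p of 0.1. The difference was larger than the spread between animals but did not pass the adjusted threshold. Taking the median of the repeat spots in place of their mean left a difference of 0.14 and a limma p of 0.0772. Other settings gave larger differences of miR-182. Plain subtraction gave 0.57 (limma, p = 0.00343, adjusted p = 0.363), the authors' processed values with 50 added 0.50 (limma, p = 0.000404, adjusted p = 0.130) and their log2 values 1.08 (limma, p = 0.000969, adjusted p = 0.156). Without normalization it was 0.69, with a median of 0.27 over all probes, and with the arrays scaled to their detected probes 0.85, with a median of 0.44.

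The scanner values of miR-182 before any correction show how close to the background this comparison stands. The median of the repeat spots was 216.8, 85.4 and 143.6 units in sham replicates 1, 2 and 3, where the empty spots had medians of 214, 64.7 and 117. The paced replicates 1, 2 and 3 read 377, 326 and 284 units for miR-182, and their empty spots were at 399, 242.5 and 261. The 3 paced signals were the highest, and so were the 3 paced backgrounds. Above the nearest empty spots, miR-182 had 4.02, 20.2 and 18.5 units in the sham and -5.21, 69.5 and 30.7 units in the paced replicates. On this scale the groups overlapped, and paced replicate 1, the highest of all after normalization, was the lowest. Over the array 3 probes (0.932%) had paced above sham without overlap on it, and miR-182 and miR-205 were not among them.

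The probes at background were themselves not level with the empty spots. The 143 probes that never rose well above background had a median that, minus the empty-spot median, was -76.4 units in paced replicate 1, -37.0 units in sham replicate 1 and 20.5 units in paced replicate 2. Above these probes, miR-182 had 39.8, 20.1 and 23.5 units in the sham and 54.5, 63.0 and 41.9 units in the paced replicates. Here each paced animal was again above each sham animal, as it was for 15 of all 322 probes (4.66%). This reference was chosen after the values were seen, and its values are given without a test. They are raw units, so an array with a brighter scan also spreads them more.

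In the authors' processed values, miR-182 had intensities of 27.6, 29.4 and 29.8 in sham and 70.6, 58.4 and 55.7 in paced replicates 1, 2 and 3. Sham averaged 28.9 ± 1.17 and paced 61.5 ± 7.92 (SD, n = 3 each). The methods' t-test on these values gave a p of 0.00213 for miR-182 and 0.239 after adjustment over all 322 probes. Paced lay above sham without overlap for 24 of all 322 probes (7.45%) in these values, and of the 9 this held again for miR-182 and miR-205. How the background was removed from these values is not given in the sources used here, its part in the difference was not tested, and no fold is given for a probe not well above background.

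miR-183 is made beside miR-182 and differs from it at 5 positions, and its values did not separate. Its normalized log2 intensity was 6.64, 6.81 and 6.73 in sham and 6.85, 6.77 and 6.70 in paced replicates 1, 2 and 3. The groups overlapped, and the difference was 0.05 (SE 0.08, 95% interval -0.14 to 0.23, limma, adjusted p = 0.861). In the processed values miR-183 had 0.00547, 8.75 and 5.98 in sham and 1.46, 1.09 and 0.0188 in paced animals, near the bottom of the scale and with overlap. Whether the differences of miR-182 and miR-183 differ from each other was not tested.

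For miR-205, sham replicates 1, 2 and 3 had normalized log2 intensities of 6.93, 6.89 and 6.76 and paced replicates 1, 2 and 3 had 7.07, 6.96 and 7.04. The lowest paced value was just above the highest sham value. The difference was 0.16 (SE 0.07, 95% interval -0.01 to 0.34, limma, p = 0.0657, adjusted p = 0.474), and the exact permutation p was 0.1. The processed values were 6.99, 5.08 and 8.14 in sham and 18.6, 15.9 and 18.4 in paced replicates. Sham animals averaged 6.73 ± 1.55 and paced animals 17.6 ± 1.49 (SD, n = 3 each), and no fold is given for a probe at background. The methods' t-test on the processed values of miR-205 gave a p of 0.000929 and 0.239 after adjustment. Above the nearest empty spots, miR-205 had -29.6, 0.97 and 0.53 scanner units in the sham and -51.8, 20.3 and -9.45 units in the paced replicates, with overlap. All 6 values lie within 3 SD of the empty spots. Over the settings tried, the normalized difference of miR-205 ran from 0.06 with plain subtraction to 1.41 on the log2 of the processed values (limma, adjusted p = 0.764 and 0.161).

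**Figure D3:**
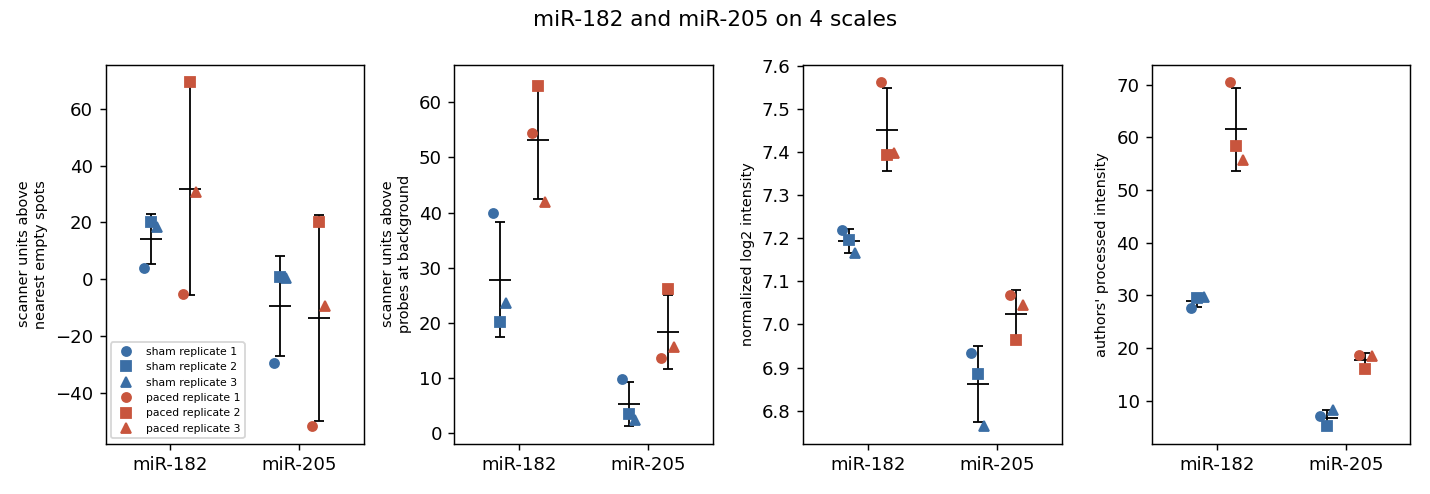
miR-182 and miR-205 in 3 sham (blue) and 3 paced (red) animals on 4 scales, with the mean and SD of each group (n = 3) in black. From left to right the vertical axes are scanner units above the nearest empty spots, scanner units above the probes at background, normalized log2 intensity and the authors' processed intensity, and the groups overlap on the first scale but not on the other 3.

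The groups overlapped for both miR-9 probes. For miR-9, the normalized log2 intensity was 6.71, 6.53 and 6.72 in sham and 6.71, 6.88 and 6.73 in paced replicates, a difference of 0.12 (SE 0.09, 95% interval -0.09 to 0.33). For miR-9-1, it was 6.90, 6.96 and 6.98 in sham and 6.77, 6.98 and 7.004 in paced replicates, a difference of -0.03 (SE 0.08, 95% interval -0.23 to 0.17). The 2 probes of nearly the same target thus had mean differences of opposite sign, and both intervals include 0. Their limma adjusted p values were 0.654 and 0.912. With the background taken from the nearest empty spots, the difference of miR-9 was 0.20 and passed the unadjusted threshold (limma, adjusted p = 0.393). With cyclic loess the difference of miR-9 was 0.036 and with the median of the repeat spots 0.0096. Paced replicate 1 was the lowest of the 6 animals for miR-9-1 and the second lowest for miR-9.

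For miR-124a, the values were 6.78, 6.73 and 6.69 in sham and 6.998, 6.81 and 6.75 in paced replicates. Paced replicate 1 was the highest, and the lowest paced animal lay below the highest sham animal. The difference was 0.12 (SE 0.08, 95% interval -0.08 to 0.32, limma, adjusted p = 0.650).

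The liver miRNA miR-122 had values of 6.81, 6.72 and 6.64 in sham and 6.79, 6.76 and 6.69 in paced replicates. The groups covered nearly the same range, and the difference was 0.02 (SE 0.07, 95% interval -0.15 to 0.20, limma, adjusted p = 0.912).

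The pancreatic miR-216 had values of 6.71, 6.76 and 6.86 in sham and 6.82, 6.86 and 6.87 in paced replicates, a difference of 0.08 (SE 0.07, 95% interval -0.09 to 0.24). Its neighbour miR-217 had 6.67, 6.63 and 6.74 in sham and 6.77, 6.81 and 6.74 in paced replicates, a difference of 0.09 (SE 0.07, 95% interval -0.07 to 0.25). The groups overlapped for both, and their limma adjusted p values were 0.738 and 0.653. In the processed values, miR-122, miR-124a, miR-216, miR-217 and miR-9 had intensities from 0.00565 to 7.27 over the 6 animals, and miR-9-1 from 2.51 to 21.9, with overlap of the groups for all 6 probes. Above the probes at background, the paced scanner signals of miR-122 (-13.1, -9.18 and -14.4 units) lay below its sham signals (-8.92, -2.85 and -6.74 units), as they did for 31 of all 322 probes (9.63%), whereas the groups of miR-9, miR-9-1, miR-124a, miR-183, miR-216 and miR-217 overlapped.

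A related list of miRNAs that are likewise best known outside heart muscle was drawn up by name and had 14 probes. Of these, 10 were well above background on no array, beside 44.4% of all probes. miR-128, a neuronal miRNA, was well above background on all 6 arrays. miR-204, miR-192 and miR-7 were so on some arrays, with 2 sham and 2 paced arrays for miR-204, 2 sham and 0 paced arrays for miR-192 and 2 sham and 0 paced arrays for miR-7. By unadjusted limma p, 1 of the 14 was higher in paced animals (miR-34c, 0.17, SE 0.07, adjusted p = 0.417) and 2 were lower (miR-7, -0.35, SE 0.08, adjusted p = 0.148, and miR-128, -0.21, SE 0.08, adjusted p = 0.398). Over the array 3.42% of probes were higher and 7.14% lower by this p. None of the 14 passed the adjusted threshold. miR-194 was also sought for the list, but the name rule left out its lettered probes. Of these, miR-194a was well above background on 2 sham and 1 paced arrays and differed by -0.26 (SE 0.09, limma, adjusted p = 0.360). miR-194b-3p and miR-194b-5p were so on no array and differed by -0.005 and -0.004. The median difference of the list was 0.07, beside 0.00 over all probes and 0.05 over the 143 probes well above background on no array. The epithelial probe of the list closest in kind to miR-200b is miR-429, a miR-200 family member with no seed match among the 9. It was well above background on no array, and its difference was 0.14 (SE 0.08, adjusted p = 0.495).

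**Figure D4:**
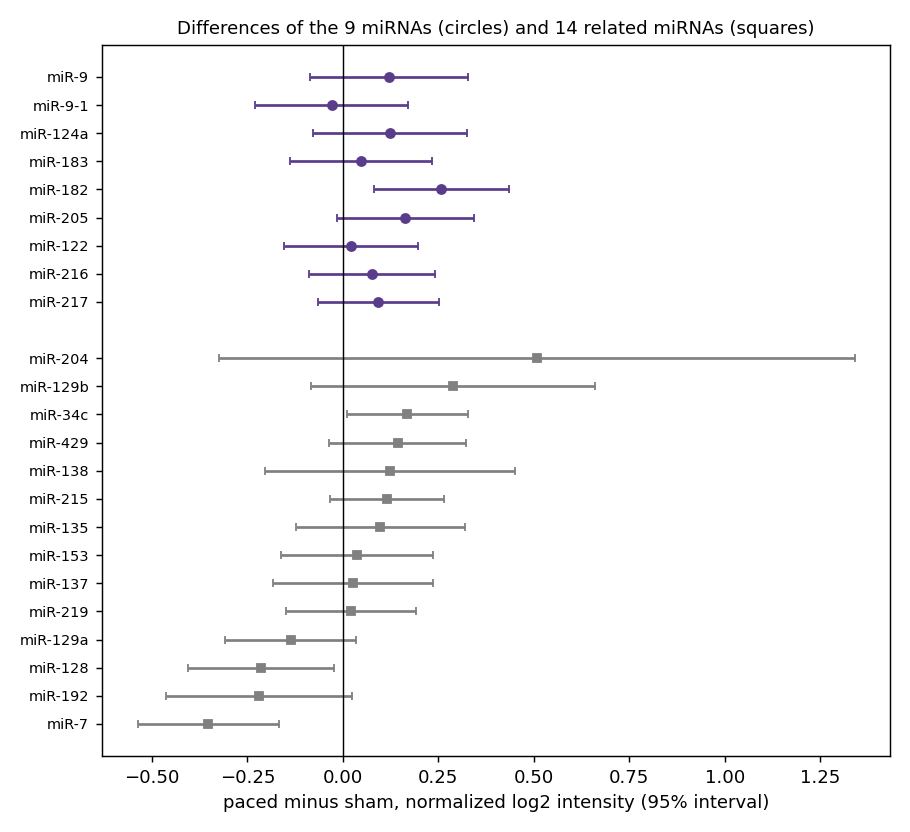
Paced minus sham difference in normalized log2 intensity (horizontal axis) with its 95% interval from limma (n = 3 animals in each group), for the 9 probes (circles) and the 14 related probes (squares). Among the circles only the interval of miR-182, from 0.08 to 0.43, lies wholly above 0, before any adjustment for the number of probes.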

How the data were processed

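LA RNA of 3 sham and 3 paced pigs was hybridized to 1 array per animal. The authors deposited 2 kinds of intensity on a linear scale, the median scanner intensity of each spot, uncorrected, and 1 processed intensity per probe and array, whose background subtraction and normalization are not given in the sources used here. The processed values served as an alternative. The target sequences came from the scanner files, and neighbouring genes from a RefSeq gene table of Sscrofa11.1. The files hold no coordinates and none is printed.

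All spots were corrected with normexp (offset 50, limma 3.58.1, R 4.3.3), and the miRNA spots were quantile-normalized on the linear scale, transformed to log2 and averaged over 9 repeat spots. Groups were compared with limma (lmFit, eBayes) over all 322 probes, with Benjamini-Hochberg adjustment. The code was tested on simulated data, with changes placed only in brighter probes, so that test does not cover calls near background. Precision is limited by having 3 arrays per group, and p-values measure the spread between animals.

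The miRNAs, the related and marker lists, and the tests were chosen with earlier results of these data known. All 9 probes are named. For a probe well above background on all 6 arrays, the 3 most similar probes would have been named, but none qualified. Alternatives were other background corrections, normalizations, detection rules and tests, the replicate number as a block, and each animal left out. Quantile normalization of log2 values, the processed values with 50 added, and the methods' t-test on the processed values were added after the data were seen. Figures were drawn with matplotlib 3.10.9 (Python 3.11.15).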

Additional observations from a re-analysis of the deposited data

How the results depend on the processing

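Of 179 differences under the alternatives, 157 kept their direction and side of the adjusted threshold. The t-test, intensity-trend and block settings cannot move a difference. Elsewhere miR-182, miR-205, miR-124a, miR-216, miR-217 and miR-9 kept their sign in every value given. Scaling the arrays to their detected probes moved the median of all 322 probes to 0.44, and then 9 of the 9 passed the unadjusted (181 of all probes) and 9 the adjusted threshold (171), with miR-9-1 turned to 0.58. The SE was then 0.19 for all 9. No other setting brought any of the 9 past the adjusted threshold. Without normalization the median of all probes was 0.27 and miR-9-1 0.41. With plain subtraction miR-122 was -0.0514 and miR-9-1 0.0163, and miR-217, at the floor in all animals, gave no value. Against the nearest empty spots miR-183 was -0.0547 and miR-9-1 0.0512. With cyclic loess miR-122 was -0.0175 and miR-9-1 0.00493. On the processed values miR-183 was -1.09, and with 50 added miR-122 was -0.00478, miR-183 -0.108 and miR-9-1 0.0273.

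The count past the unadjusted threshold, 1 as reported (34 of all probes), was 2 against the nearest empty spots (miR-182 and miR-9, not miR-205; 36). It was 2, miR-182 and miR-205, with cyclic loess (31), with an intensity trend and robust prior (40), and on the processed values (31 in limma, 39 with 50 added, and 29 by the methods' t-test). It was 0 with the median of the repeat spots (35) and 0 when dim probes, all 9 among them, were left out (5 of the probes kept). With each animal left out it was 1, against 18 (without paced replicate 3), 20 (without sham replicate 2) and up to 69 (without paced replicate 1) of all probes, and miR-182 lay between 0.22 and 0.29 (limma adjusted p from 0.107 to 0.721). Then miR-122 ran from -0.0210 (without sham replicate 3) to 0.0711, and miR-9-1 from -0.0702 to 0.0484 (without paced replicate 1). Moves of over 1.5 times were also seen for miR-124a (0.049 without paced replicate 1), miR-183 (0.0017 without sham replicate 1, 0.013 without paced replicate 1, 0.095 without sham replicate 2 and 0.082 without paced replicate 3), miR-9 (0.056 without sham replicate 2 and 0.062 without paced replicate 2) and miR-216 (0.045 without sham replicate 1 and 0.12 without sham replicate 3). The count well above background on at least 1 array, 0 as reported (179 of all probes), was 1 at 2 SD (191), against the nearest empty spots (199), above the 95th percentile of the empty spots (195) and with the mean of the repeat spots (fewer than 191), each time miR-182. The cause of these changes was not tested.

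Same-numbered sham-paced pairs correlated in their deviations at 0.17, -0.04 and 0.14, other pairs at -0.23 to 0.19. A shared run was not tested. With replicate number as a block, 1 passed the unadjusted (33 of all) and 0 the adjusted threshold (0 of all), and miR-182 was 0.26 (adjusted p 0.298).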
